A study of Mus musculus with 10 samples.

Results

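The genes described here are the protein-coding genes of wild-type mouse embryonic stem cells. For each, the level of its RNA was read. It was also read whether a chromatin region was listed at its start for the DNA repair protein RAD23B. RNA levels came from 1 poly-A library of the wild-type JM8.N4 line, and RAD23B occupancy from 2 chromatin immunoprecipitation libraries (replicates 1 and 2) of the wild-type D3 line, each set against normal guinea pig IgG. These are 3 of the 10 samples of the series. JM8.N4 and D3 are established stem cell lines, none of these 3 samples carries a mutation or knockdown by its labels, and RNA and occupancy were therefore read in different lines. Nothing in the labels says whether the ChIP replicates came from separate cultures. The members were the 22200 protein-coding entries among 36586 named genes of the deposited table that sets the Rad23b-null library beside wild type. Of these, 15198 have coordinates of their own and 7002 share their listed coordinates with another gene, so that the listed start need not be theirs; a RAD23B region was called only for the first kind. A gene was said to have a region when a region listed in replicate 1 overlapped one listed in replicate 2 by at least 1 base and came within 1 kb of the gene's start, read by its strand (mm9). The ChIP libraries held about 109316000 and 62526000 reads by the authors' scaling, and their lists 59768 and 42364 regions. The authors' folds of RAD23B over IgG in these lists went down to 1.03 and 1.05, so a listed region can be weak. A start without a listed region was not shown to lack RAD23B. There were 38822 shared regions, and 6640 of the 15198 genes had one at the start (43.7%).

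RAD23B and the centrin CETN2 are partners of XPC in the complex that finds bulky DNA damage and begins nucleotide excision repair, and in stem cells the same complex was described as a coactivator for the transcription factors OCT4 and SOX2. RAD23 proteins also bind ubiquitin and bring ubiquitylated proteins to the proteasome. Stem cells of the mouse are kept in the naive state by OCT4, SOX2, NANOG and a set of supporting factors, divide fast, and express genes of ribosomes, chaperones and glycolysis strongly.

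The promoters of 6 of the most active genes are given first, as examples of the contrast described below. Eef1a1, Ppia and Actg1 had a RAD23B region at the listed start. Rps4x, Rplp0 and Rpl10, likewise at 1000 RPKM or more, had none. At Rplp0 and Rpl10 a region of the replicate 1 list alone covered the start, so that their call rests on replicate 2, and Rps4x and Rpl10 are on the X chromosome. The sequences are from RefSeq (GRCm38.p6) and run over the 250 bases before the RefSeq start, 5′ to 3′ on the strand of the gene. Regions were called at the listed mm9 starts, which need not be the RefSeq starts. The listed Eef1a1 locus spans 10703 bp and its RefSeq span is 3272 bp. Whether its region lies at the promoter printed here was not tested. Capitals mark matches on either strand to 5 motifs. These were the TATA box, searched as the letters TATAAA, and the CCAAT box by those letters of its name. The GC box was searched as GGGCGG, the E-box of MYC and its relatives as CACGTG, and the core bound by ETS factors as CCGGAAG. Matches to the GC box can overlap each other or a CCAAT box. The first 3 are chr9:78481725-78481974 (minus strand), chr11:6415617-6415866 (plus) and chr11:120348496-120348745 (minus).
Eef1a1: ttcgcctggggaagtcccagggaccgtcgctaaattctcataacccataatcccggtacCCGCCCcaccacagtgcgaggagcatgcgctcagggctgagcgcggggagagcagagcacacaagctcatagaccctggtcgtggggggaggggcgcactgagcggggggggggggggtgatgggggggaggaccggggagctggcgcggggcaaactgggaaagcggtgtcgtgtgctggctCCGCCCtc
Ppia: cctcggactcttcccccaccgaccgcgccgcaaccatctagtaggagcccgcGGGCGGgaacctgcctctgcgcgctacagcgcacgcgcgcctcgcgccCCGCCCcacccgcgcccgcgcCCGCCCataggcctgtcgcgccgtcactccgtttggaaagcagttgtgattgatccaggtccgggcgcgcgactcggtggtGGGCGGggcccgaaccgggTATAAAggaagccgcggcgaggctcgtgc
Actg1: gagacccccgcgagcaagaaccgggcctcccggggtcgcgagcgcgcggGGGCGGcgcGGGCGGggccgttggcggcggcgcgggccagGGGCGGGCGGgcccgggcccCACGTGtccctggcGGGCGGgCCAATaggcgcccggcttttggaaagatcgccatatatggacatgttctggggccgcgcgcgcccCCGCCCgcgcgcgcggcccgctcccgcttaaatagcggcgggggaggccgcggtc
The 3 promoters of genes without a region are chrX:102189392-102189641 (minus), chr5:115559217-115559466 (plus) and chrX:74270566-74270815 (plus).
Rps4x: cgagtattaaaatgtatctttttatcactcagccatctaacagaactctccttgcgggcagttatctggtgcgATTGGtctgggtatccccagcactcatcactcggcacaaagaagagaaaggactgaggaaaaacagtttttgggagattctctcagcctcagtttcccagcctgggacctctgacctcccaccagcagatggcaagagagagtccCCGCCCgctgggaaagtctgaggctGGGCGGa
Rplp0: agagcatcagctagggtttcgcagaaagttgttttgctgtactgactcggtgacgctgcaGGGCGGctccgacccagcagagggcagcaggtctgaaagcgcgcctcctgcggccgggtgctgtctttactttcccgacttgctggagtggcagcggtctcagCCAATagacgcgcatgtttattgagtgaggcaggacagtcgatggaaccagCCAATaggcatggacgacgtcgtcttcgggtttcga
Rpl10: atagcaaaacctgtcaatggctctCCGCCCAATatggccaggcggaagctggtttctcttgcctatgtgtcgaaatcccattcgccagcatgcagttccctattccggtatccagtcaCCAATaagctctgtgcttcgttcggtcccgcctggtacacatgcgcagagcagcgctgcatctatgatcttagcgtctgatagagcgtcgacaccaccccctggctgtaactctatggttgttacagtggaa
The GC box was found 2 times before Eef1a1, 4 times before Ppia and 6 times before Actg1, and 2, 1 and 1 times before Rps4x, Rplp0 and Rpl10. The CCAAT box was found 0, 0 and 1 times in the first 3 and 1, 2 and 2 times in the others. Among these 6, the TATA box letters stood only before Ppia, those of the E-box only before Actg1, and those of the ETS core before none. GC content was 68.0, 72.4 and 79.2% in the first 3 and 52.0, 58.0 and 52.8% in the others, with 18, 38 and 43 CpG dinucleotides against 7, 19 and 13. Over all 32851 promoters of the RefSeq table, 32.7% held the GC box, 33.8% the CCAAT box, 12.4% the TATA box, 6.02% the E-box and 6.91% the ETS core, with a median GC content of 52.4% and a median of 6 CpG. These 6 were the first 3 by level among the 30 highest entries and the first 3 among genes without a region that had coordinates of their own and a RefSeq promoter, and the letters are a description of them. All 3 without a region encode ribosomal proteins. An entry in that table was found for 10907 of the 15198 genes (71.8%). The same features were not compared over them, so whether they go with a region was not tested.

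Slightly over 1 in 2 protein-coding genes had RNA at 1 RPKM or more in wild-type cells, and a small number held most of the summed RPKM. RPKM counts reads per kilobase of transcript, scaled to the size of the library, so that levels of genes can be compared within the library. An RPKM of at least 1, here called active, was reached by 11687 of 22200 genes (52.6%), with a median of 14.9 RPKM among them. A further 5624 lay above 0 and below 1, and 4889 were listed at 0. Of the active genes 4608 were under 10 RPKM, 5894 from 10 to under 100, 1065 from 100 to under 1000, and 120 at 1000 or more. Those 120 (0.541% of genes) held 42.5% of the summed RPKM. The 100 most active genes held 39.9% and the 500 most active 60.9%. There is 1 RNA library of unknown depth, so none of these levels has a replicate error.

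**Figure D1:**
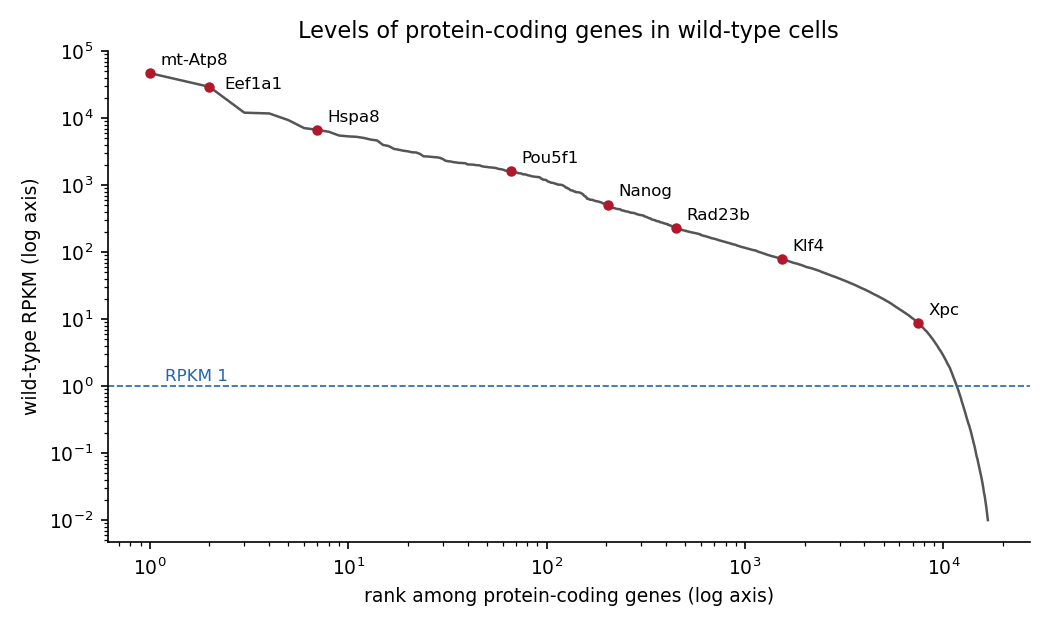
Wild-type RPKM (log axis) of protein-coding genes against their rank (log axis), for genes of at least 0.01 RPKM, with 8 genes marked and a dashed line at an RPKM of 1. Levels run from 47046 RPKM for the highest entry to 1603 for Pou5f1, 229 for Rad23b and 8.73 for Xpc.

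The strongest transcripts served translation, protein folding and respiration. Eef1a1, which brings aminoacyl-tRNA to the ribosome, stood at 29348 RPKM, above every other nuclear gene. The chaperone genes Hspa8 (6691), Hsp90aa1 (5505) and Hsp90ab1 (5348) followed with Ppia, the cyclophilin A gene (6260), and Npm1, a nucleolar protein of ribosome assembly (4787). Gnb2l1, which encodes the ribosome-bound scaffold RACK1, was at 3836, the actin gene Actg1 at 3092, the glycolytic enolase Eno1 at 2933 and the ferritin light chain Ftl1 at 2694. Among the 30 highest entries were 8 ribosomal protein genes, from Rpl6 (3376) down to Rpl4 (2453).

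The mitochondrial genome gave 10 entries with 10.9% of the summed RPKM. mt-Co1 and mt-Co2, subunits of cytochrome oxidase, stood at 12061 and 9344, and mt-Nd2 and mt-Nd4, subunits of complex I, at 5268 and 5066. The highest entry of the table, mt-Atp8 at 47046, has a listed span of 1625 bp, and its neighbours mt-Atp6 and mt-Co3 have no entry of their own. Neither ChIP list holds a region on the mitochondrial chromosome. Some further entries among the 30 highest are uncertain. Gm6020 (3981) and Gm10180 (3265) have listed spans of 66 and 78 bp, over which an RPKM rests on few positions. Gm10925 (4640) spans 814 bp, and Gm13151 (11763) lies on a listed locus with 29 other genes. Flt3l, a cytokine gene, was listed at 7111 on coordinates shared with 1 other gene, while the ribosomal protein gene Rpl13a, its neighbour 2438 bp away in RefSeq, has no entry. Whether reads of such neighbours or of near copies were counted here was not tested.

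Every gene of the core and naive pluripotency lists was active in the library. Gene lists were written by name, and all levels that follow are wild-type RPKM. Of the core factors, Pou5f1, which encodes OCT4, stood at 1603, Nanog at 512 and Sox2 at 184. All 26 genes of the naive list were active, between 19.8 (Prdm14, a repressor of primed-state genes) and 2040 (Dppa5a, an RNA-binding protein of early embryos), with a median of 76.7. Tdgf1, a Nodal coreceptor, stood at 1087, Utf1 at 340, Esrrb at 162, Klf2 at 95.9, Klf4 at 78.7 and Zfp42 at 44.6. The LIF receptor genes Lifr (12.7) and Il6st (14.95) were low beside Stat3 (30.2) and its feedback inhibitor Socs3 (68.4). Nodal and its antagonists Lefty1 and Lefty2 stood at 27.1, 101.1 and 146, and 8 of the 12 genes of Nodal signalling and the primed state were active. Of primed-state genes Dnmt3b stood at 24.5, Otx2 at 10.98, Pou3f1 at 5.54 and Fgf5 at 0.336.

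Markers of other cell types were mostly below 1. In bulk RNA, few cells of a type and little RNA per cell cannot be told apart. Of 12 fibroblast markers 1 was active, Twist1 at 1.75, and their summed level was 4.38. Dcn stood at 0.0163, and Lum and Postn were listed at 0. Of 12 mesoderm markers 1 was active (Gsc, 1.21), of 7 blood markers 1 (Cd68, a macrophage protein, 32.0), and of 11 genes of the 2-cell embryo 0, the highest being Gm5662 at 0.625. Trophectoderm markers were active in 7 of 11, with Tfap2c at 59.2 and the keratins Krt8 and Krt18 at 21.4 and 18.4. Their defining factors Cdx2 and Elf5 stood at 0.0991 and 0.0161. Primitive endoderm markers were active in 4 of 12, where Sparc, a matrix protein, reached 175 and Gata4, Gata6 and Sox17 stood at 1.26, 0.961 and 0.281. Neural markers were active in 6 of 10, with the tubulin gene Tubb3 at 44.2, on a locus listed with 155 other genes, and Olig2 at 17.98. All 34 matched Hox genes were below 1.

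**Figure D2:**
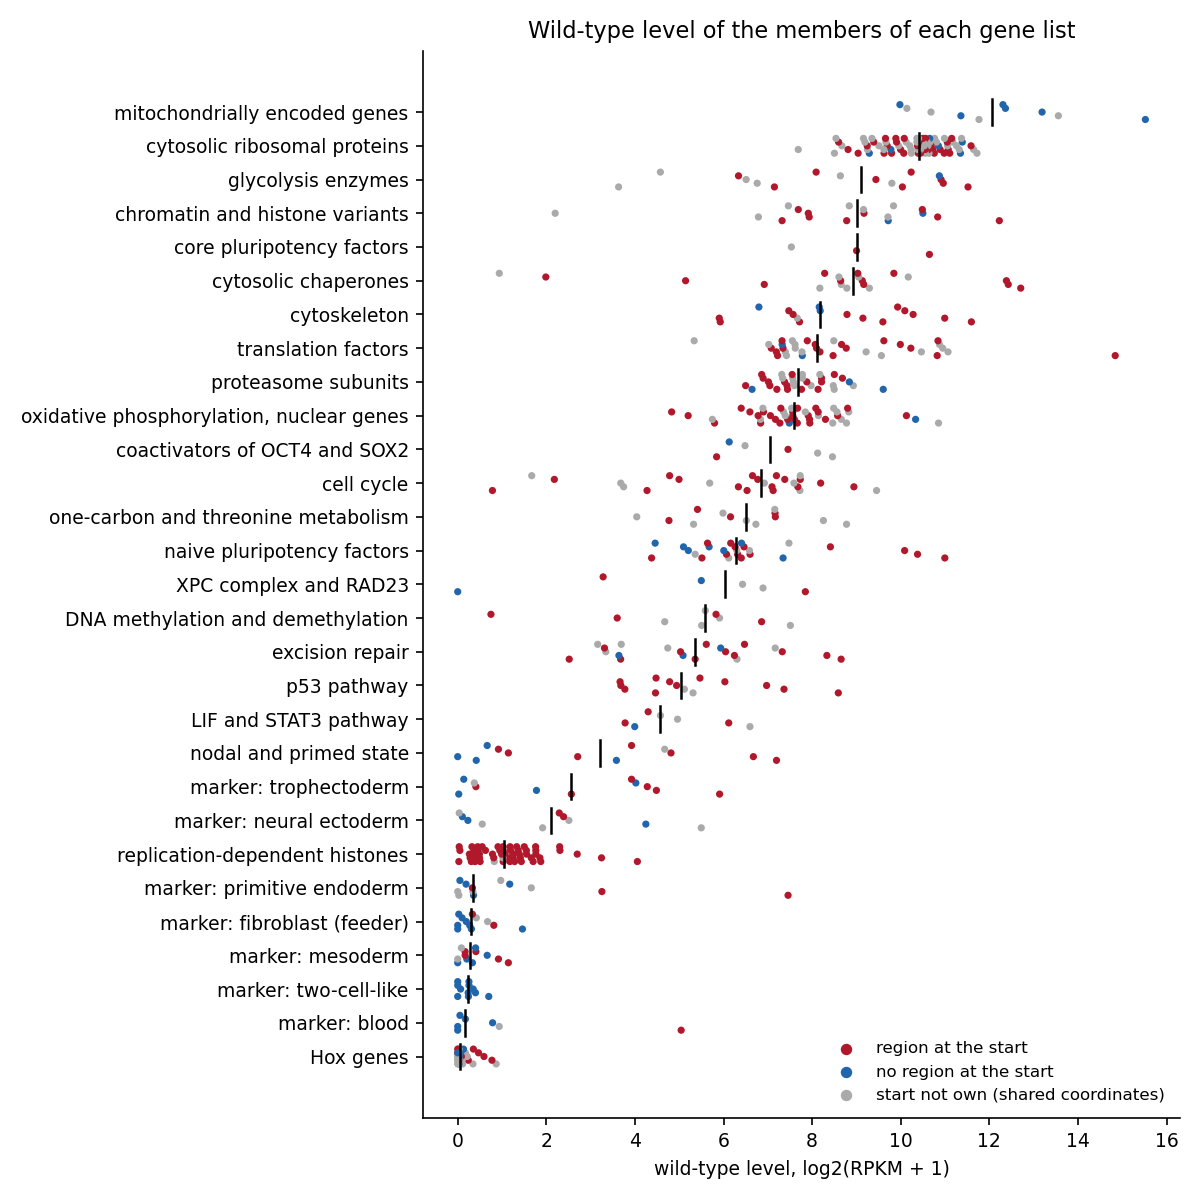
Wild-type level, log2(RPKM + 1), of each member (point) of the 29 gene lists, ordered by the list median (black bar). Red points had a RAD23B region at the start, blue points had none, and grey points share their listed coordinates. Mitochondrial, ribosomal protein and glycolysis genes lie highest, and Hox genes and markers of blood, the 2-cell embryo and mesoderm lowest.

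By pathway, 77 ribosomal protein genes held 13.3% of the summed RPKM, from 205 (Rpl37) to 3376, with a median of 1356. Glycolysis enzymes had a median of 545, cytosolic chaperones 481, translation factors 273, proteasome subunits 205 and nuclear genes of oxidative phosphorylation 191. Pkm2 and Aldoa, glycolytic enzymes, stood at 1991 and 1923, and Ldha, lactate dehydrogenase, at 1873. Of the cell cycle genes Cdk4 (701) and Cdk1 (491) were highest, and the inhibitors Cdkn1a and Cdkn2b stood at 26.5 and 0.722. Trp53, the p53 gene, was at 385. Tdh, the threonine dehydrogenase used by mouse stem cells, was at 437. Replication-dependent histone genes had a median of 1.07 and a highest level of 15.6 (Hist1h4i). Most of their transcripts carry no poly-A tail, and the library was made from poly-A RNA.

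The RNAs of RAD23B and its partners were unequal. Rad23b stood at 229 RPKM, rank 451 among protein-coding genes. Xpc was at 8.73 (rank 7485), and the centrin genes Cetn2 and Cetn3 at 44.2 and 85.2, with Cetn1 listed at 0. Among the dyskerin complex and the other coactivators of OCT4 and SOX2, Nhp2 was highest at 351, followed by Dkc1 (278), Fbl (175), Abcf1 (88.6), Nop10 (69.0) and Gar1 (56.4). Nhp2, Dkc1, Abcf1 and Cetn3 share their listed coordinates with other genes. Genes on such coordinates were still listed with values of their own: on 2993 loci with at least 2 genes above 0, in 0 did all these genes have the same value.

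RAD23B regions were found at the starts of most active genes and few inactive ones. Against 43.7% of all genes with coordinates of their own, a region stood at the start of 5451 of 7244 active genes (75.2%), of 1080 of 3817 genes above 0 and below 1 RPKM (28.3%), and of 109 of 4137 genes listed at 0 (2.63%). The share was 66.9% from 1 to under 10 RPKM, 80.3% from 10 to under 100, 83.8% from 100 to under 1000 and 72.7% at 1000 or more (56 of 77). Those 77 include 6 mitochondrial genes and 4 on the X chromosome. On autosomes alone the share was 82.1% at 1000 or more (55 of 67), beside 85.8% from 100 to under 1000. Read the other way, 82.1% of genes with a region and 21.0% of genes without were active. The mean log2(RPKM + 1) was 3.60 with a region and 0.82 without. No test was made, since the RNA has 1 library and genes are not replicates. The shares depend on the strength asked of a region. With an authors' fold of at least 2 in both replicates they were 18.5% of active genes and 0.846% of genes at 0. With any region of the replicate 1 list, and so without replicate 2, 4.09% of genes at 0 had one.

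**Figure D3:**
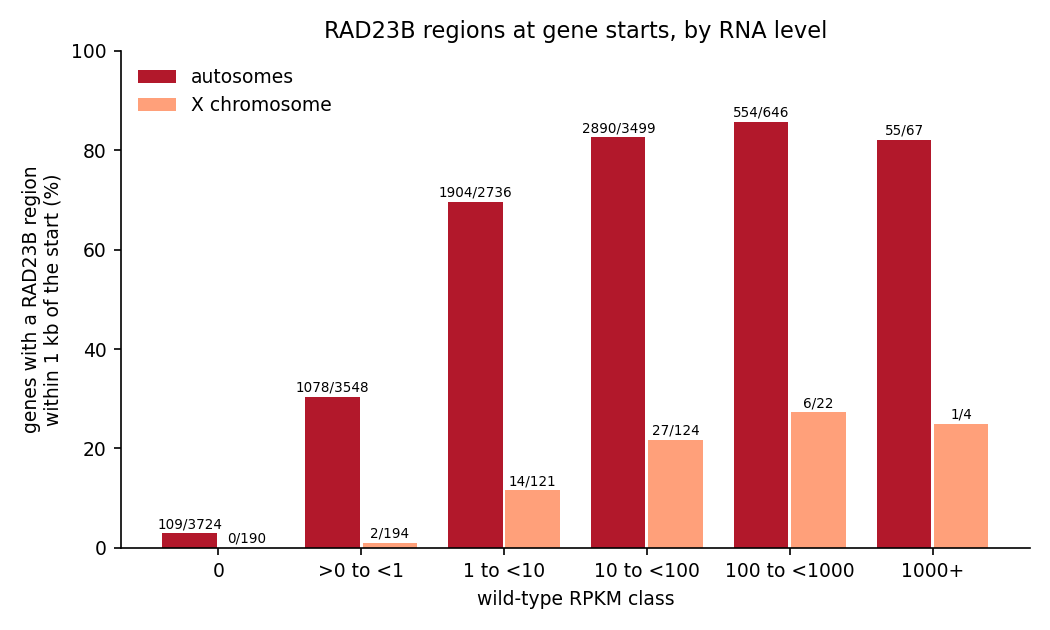
Percentage of protein-coding genes with coordinates of their own that had a shared RAD23B region within 1 kb of the start, by wild-type RPKM class, for autosomes (dark bars) and the X chromosome (light bars), with counts above the bars. On autosomes the share goes from 2.93% at 0 to 85.8% between 100 and 1000 RPKM, and on the X chromosome it is at most 27.3%.

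Region strength differed little between classes of RNA level. Where several regions qualified, the one of highest replicate 1 fold was used, with the overlapping replicate 2 region of highest fold; the fold is the authors' scaled ratio of RAD23B to IgG reads. Its median was 1.80 and 1.87 in the replicates for genes from 1 to under 10 RPKM, 1.80 and 1.86 from 10 to under 100, 1.86 and 1.89 from 100 to under 1000, and 1.91 and 2.02 at 1000 or more. Genes listed at 0 that had a region were at 1.86 and 2.04. Over the 5451 active genes with a region the Spearman correlation of RPKM with the fold was 0.05 in replicate 1 and 0.00 in replicate 2, while the folds of the replicates correlated at 0.74. These correlations run across genes that share libraries and are descriptions. Regions were wider at higher levels, from a median of 770 bp at 1 to under 10 RPKM to 906 bp at 1000 or more in replicate 1, and from 571 to 735 bp in replicate 2. IgG reads were higher beside it, from a median of 126 to 176 per region in replicate 1 and from 56 to 74 in replicate 2, or per kb of region from 163 to 184 and from 95.1 to 103. The part of this background in the shares was not tested.

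**Figure D4:**
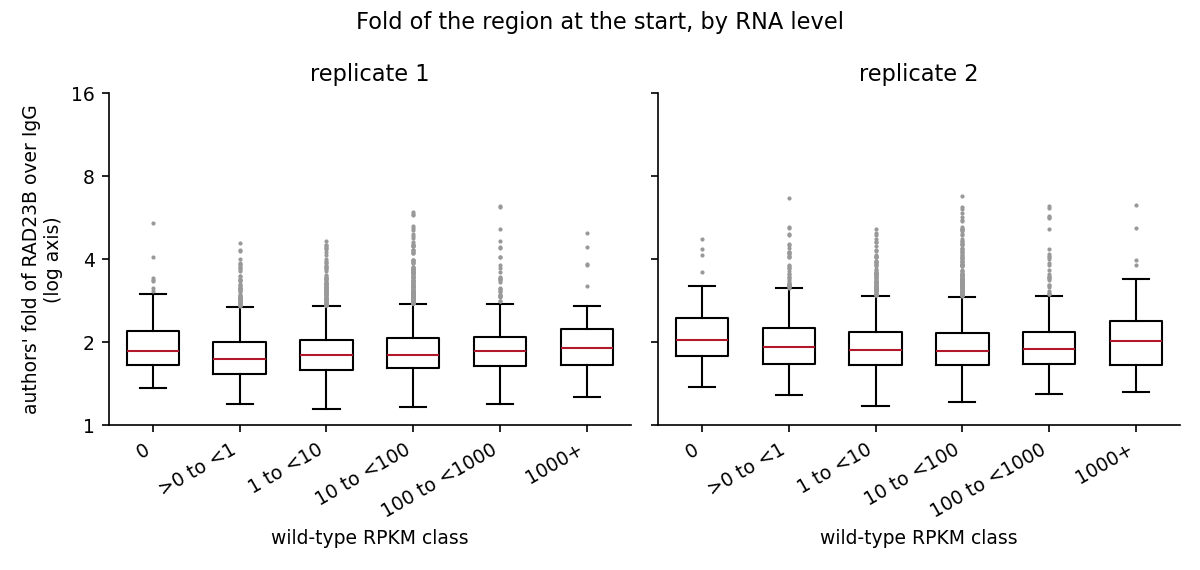
Authors' fold of RAD23B over IgG (log axis) of the region at the start, by wild-type RPKM class, in replicates 1 and 2. Boxes span the quartiles with the median in red, whiskers reach up to 1.5 times the box and points lie beyond. Medians lie between 1.74 and 2.04 in every class.

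The regions sat on the listed starts themselves. Of the active genes, 4965 (68.5%) had their start inside a shared region, 235 had one 1 to 250 bp away, and 51 one 751 to 1000 bp away. Beyond the limit, 44 had the nearest at 1001 to 1250 bp. Among genes at 100 RPKM or more, Zfp57 (926 bp) and Lefty2 (945 bp) lay just inside the limit, and Cks1b (1071 bp) and Pla2g1b (1075 bp) just outside. The centre of the region lay a median of 19 bp downstream of the start for genes from 1 to under 10 RPKM and 13.5 bp downstream from 10 to under 100, at -10.75 bp (upstream) at 1000 RPKM or more, and at -45.5 bp for genes at 0. Genes whose start lay within 1 kb of another listed start had a region more often below 1000 RPKM, for example 80.7% against 64.8% of other genes from 1 to under 10 RPKM, and 56.8% against 26.4% of those above 0 and below 1. At 1000 RPKM or more 9 genes had such a start, of which 3 had a region and the other 6 were mitochondrial.

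Pou5f1 and Tdgf1 were among the genes with the strongest regions within 1 kb of the start. Among genes of at least 100 RPKM, Phc1, a Polycomb subunit (154 RPKM), led with folds of 6.26 and 6.23 at chr6:122290279-122291595, from 813 RAD23B and 123 IgG reads in replicate 1 and 410 and 65 in replicate 2. Uba2, a subunit of the SUMO-activating enzyme (386 RPKM), had 6.18 and 5.74 at chr7:34954312-34955023 (582 and 89 reads, then 240 and 41). Spp1, the osteopontin gene (507 RPKM), had 5.16 and 6.16, and the region beside the Pou5f1 start had 5.00 and 6.29. RAD23B reads exceeded IgG reads several times over in both replicates at each of these 4, which were picked by their replicate 1 fold. Stmn2 (224 RPKM), Agtrap (215), Tdgf1, Myst2 (a histone acetyltransferase, 192), Ptp4a2 (218) and Rbpj (the DNA-binding factor of Notch signalling, 112) made up the 10 highest, with replicate 1 folds between 4.06 and 4.65 and replicate 2 folds between 3.42 and 5.69. At Spp1, Pou5f1, Stmn2, Agtrap and Myst2 the scored replicate 1 region did not cover the listed start. At Pou5f1 it was chr17:35640617-35642553, upstream of the start at 35642981, and another shared region covered that start. The replicate 2 fold there came from chr17:35640631-35641363, over 1 kb from the start. Folds of at least 4 in both replicates were rare, at 34 of 5451 active genes with a region (0.624%).

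Folds differed between genes of high RNA level. Eef1a1, Hspa8, Ppia, Npm1 and Rplp1, 5 of the 56 genes with a region at 1000 RPKM or more, were not among the 10 highest folds. Pou5f1 (1603 RPKM) and Tdgf1 (1087) did rank among the 10 highest folds at 100 RPKM or more. Median folds at 1000 RPKM or more, 1.91 and 2.02, were the highest of the active classes. Over active genes with a region the 5th and 95th percentiles of the replicate 1 fold were 1.39 and 2.70. Of the 5 genes, Eef1a1 lay above them and the other 4 between them. Hsp90aa1 (5505 RPKM) had folds of 2.42 and 2.83, and Eno1 (2933 RPKM) 2.42 and 2.27. At the listed start of Eef1a1 the region chr9:78336710-78337287 had 180 RAD23B and 53 IgG reads in replicate 1. It had 80 and 24 in replicate 2, with folds of 3.20 and 3.24. At Hspa8 the folds were 2.06 and 2.18 (434 and 200 reads, then 217 and 99), at Ppia 1.95 and 2.17 and at Npm1 1.95 and 1.63. Rplp1, at 3075 RPKM, had 1.45 and 1.41. Phc1 and Uba2 were named for the highest replicate 1 folds at 100 RPKM or more. The 5 genes therefore could not exceed them in that replicate. Beside RNA at 229 RPKM, Rad23b itself had a region of folds 2.56 and 3.07, and Xpc one of 1.84 and 2.16 (287 and 148 reads, then 135 and 62).

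The lists are given by their counts, beside 75.2% of all active genes, 80.3% of genes from 10 to under 100 RPKM and 83.8% from 100 to under 1000. A region stood at the start of all 12 chaperone genes, 16 cell cycle genes and 12 p53 pathway genes that were active and had coordinates of their own. It stood at 32 of 38 ribosomal protein genes, 18 of 20 translation factors, 27 of 29 nuclear oxidative phosphorylation genes, 9 of 10 glycolysis enzymes, 17 of 20 proteasome subunits and 12 of 15 excision repair genes. All 54 replication-dependent histone genes with coordinates of their own had one, of which 31 were active. The naive pluripotency list had 14 of 21. Those without included Esrrb, Dppa3, Dppa4, Rex2, Nr0b1 and Nr5a2. At Dppa4 and Nr0b1 a region of the replicate 1 list alone covered the start, and with that list alone 16 of the 21 had a region. At Dppa3 a replicate 2 region covered the start and the nearest shared region lay 1003 bp away. At Esrrb the nearest was 37672 bp away and at Nr5a2 1864 bp away. Nr0b1 is on the X chromosome. Sox2 shares a locus of 578182 bp with 6 other genes, so its listed start says nothing of its own promoter. Of the inactive Hox genes 10 of 17 had a region, and of the 2-cell embryo genes 0 of 11, beside 28.3% of all genes above 0 and below 1 RPKM and 2.63% of genes at 0.

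Of the 500 most active genes with coordinates of their own (at least 140 RPKM), 415 had a region (83%) and 85 had none. Of those 85, 6 were mitochondrial, 12 were on the X chromosome and 27 were autosomal entries with a listed span under 1 kb. Another 19 had a region of the replicate 1 list only at the start, 1 a region of the replicate 2 list only, and 7 a shared region over 1 kb and up to 5 kb away. This left 13 with no shared region within 5 kb and none of either list at the start. Without loci under 1 kb, and on autosomes alone, 94 of the 100 most active genes had a region. This subset was chosen after the genes without a region had been seen.

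Those 6 of the 100 were, by level, Rplp0, Ldha, Rpl14, Set, H3f3b and Psmb5. Rplp0, a protein of the ribosomal stalk (2605 RPKM), Rpl14 (1609) and Set, a histone chaperone (1447), had a replicate 1 region over the start that no replicate 2 region overlapped. Ldha had its nearest shared region 1529 bp from the listed start and H3f3b, which encodes histone H3.3 (841), 1955 bp. Psmb5, a catalytic proteasome subunit (778), had none nearer than 11713 bp, and none of replicate 1 alone nearer than 7734 bp. The listed H3f3b locus (6051 bp) is 1972 bp longer than the RefSeq span and that of Set (15200 bp) 4618 bp longer. Such loci also occur among genes with a region. Those of Eef1a1 (10703 bp) and Hsp90aa1 (12124 bp) exceed their RefSeq spans of 3272 and 5360 bp. Whether the listed starts are those in use was not tested. Among active autosomal genes a region was called for 70.6% of the 320 whose listed locus was over 1 kb longer than the RefSeq span. It was called for 79.1% of the 5832 whose locus was not, and the 796 without a RefSeq span by symbol were left out.

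Fewer active genes of the X chromosome than of the autosomes had a region. Of 271 active X genes with coordinates of their own 48 had a region (17.7%), against 5403 of 6948 on autosomes (77.8%), where single chromosomes ran from 69.1% (chromosome 2) to 86.5% (chromosome 15). RNA levels lay close together, with a median of 12.3 RPKM for active X genes and 14.7 for autosomal ones. At 100 RPKM or more 7 of 26 X genes had a region, against 609 of 713 autosomal genes (85.4%). Those with a region included Pgk1, a glycolytic kinase (1050 RPKM, folds 2.71 and 3.39), Slc25a5, the ADP/ATP carrier (831), Uba1, the ubiquitin-activating enzyme (329), and Usp9x, a deubiquitinase (308). Without one were Rps4x (2681), Rpl10 (1844), Cox7b (1291), Rpl36a (625), Tmsb4x (285), Nono (278), Ddx3x (266), Hprt (251.1), and Cetn2 at 44.2. At Rpl10, Rpl36a, Tmsb4x, Nono and Ddx3x the replicate 1 list held a region over the start.

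**Figure D5:**
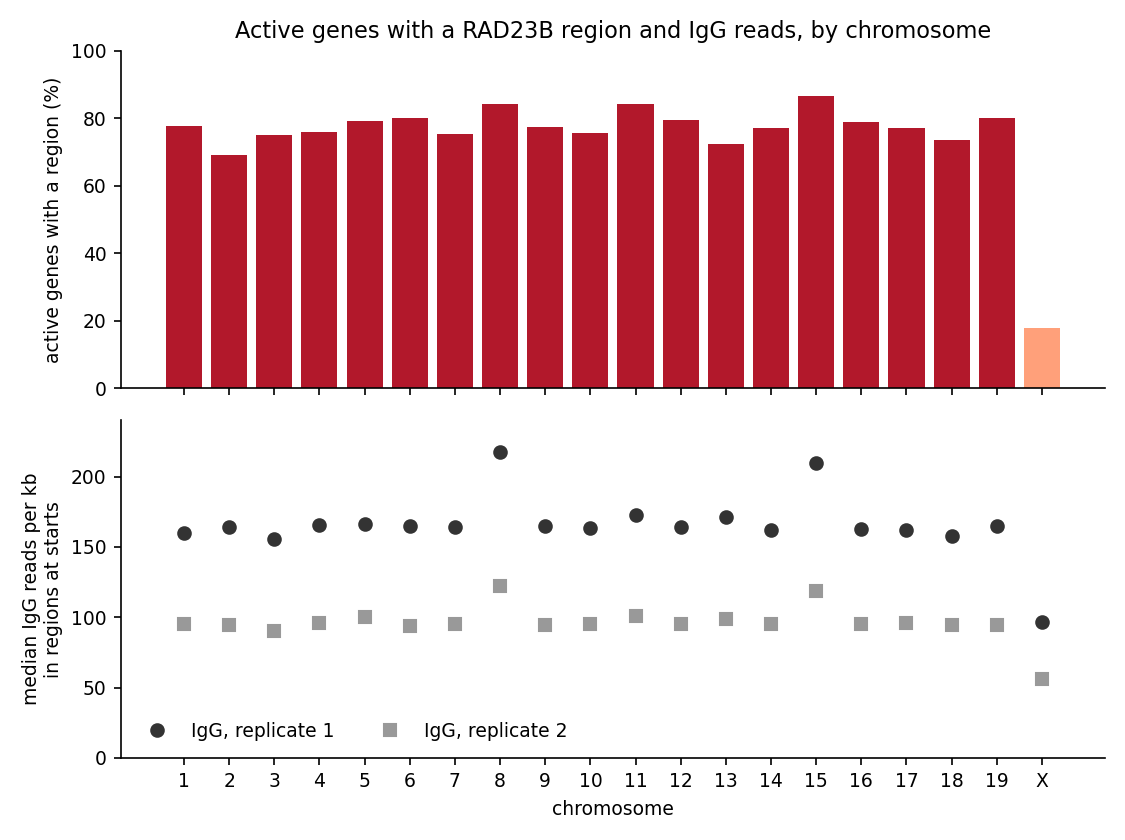
Upper panel, percentage of active protein-coding genes with a shared RAD23B region within 1 kb of the start, by chromosome. Lower panel, median IgG reads per kb of those regions in replicates 1 (circles) and 2 (squares). The X chromosome has the lowest share (17.7%) and the fewest IgG reads per kb in both replicates, and chromosomes 8 and 15 have the most reads.

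IgG reads differed beside these shares. In regions at active starts the median was 96.5 IgG reads per kb on the X chromosome and 168 on autosomes in replicate 1, and 56 and 98.1 in replicate 2. RAD23B reads per kb were 261 and 318 in replicate 1 and 160 and 181 in replicate 2. Folds were higher on the X chromosome, at medians of 2.53 and 2.66 against 1.80 and 1.87, and the regions narrower (500.5 against 808 bp in replicate 1). Chromosomes 8 and 15 had the most IgG reads per kb in replicate 1 (217 and 210) and in replicate 2 (122 and 118), together with the lowest folds (1.64 and 1.69 in replicate 1) and high shares of genes with a region (84.3 and 86.5%). The lowest region listed had 61 reads at its highest position in replicate 1 and 40 in replicate 2. With the replicate 1 list alone 101 of the 271 X genes had a region (37.3%), and with the replicate 2 list alone 49 (18.1%). The number of copies of each chromosome in the D3 cells was not measured here, and its part in these shares was not tested.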

How the data were processed

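Per the submitters' processing notes the tools were Cuffdiff, Cufflinks 2.0.2, TopHat2 2.0.6 and Partek, and the build was mm9. How regions were called is not given in the sources used here. The deposited RPKM values hold no 0, and exactly 1 was read as 0. The 72 lines without a gene name were left out. The wild-type RPKM of the other 2 deposited tables differed by a constant (median ratios 1.03 and 1.02), so they repeat 1 library. The deposited ChIP lists give counts of RAD23B and IgG reads per region and the RPM of the highest position, and the ChIP depths were computed from both. The fold is a ratio the authors deposited, close to a constant times the ratio of reads (0.947 and 0.987, relative SD 0.00742 and 0.0161). Their deposited p-value was not used. The replicate 2 headings repeat the replicate 1 names, and the sample was taken from the record of the file.

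Overlaps and distances were computed with Python 3.11.15, numpy 2.4.6 and pandas 2.3.3 and checked on simulated regions. Coordinates are those of the lists. No test was made. A share was held to have moved under another setting when it left its exact (Clopper-Pearson) 95% interval, which covers counting error only. Genes were named by rule: the 30 of highest RPKM, the 20 highest with coordinates of their own and no region, the 10 of highest fold at 100 RPKM or more, and, in each of 29 lists, the 3 highest and any active member without a region. Some genes that this rule names are not reported here. Other names, among them further list members, the X genes and the genes at the distance limit, were chosen after their values were seen. The members and lists were chosen with earlier results of these data known.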

Additional observations from a re-analysis of the deposited data

How the results depend on the processing

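The share of active genes with a region (75.2%), of the 500 most active (83%) and of genes at 0 (2.63%) kept their order under every setting tried. Their size did not hold as well, and the share of active genes left its interval in most settings. Over the shares and the other results below, each with a set limit, 30 values had moved and 26 had not. Asking for a fold of at least 2 in both replicates gave 18.5, 22.8 and 0.846%. A window of 500 bp gave 73.5% of active genes and 2.08% of genes at 0, and 5 kb gave 80.4 and 6.82%. Covering at least 50% of the replicate 1 region gave 72.3% of active genes. Including genes on shared coordinates gave 70.7, 76 and 4.05%, and leaving out starts near another start gave 73.3% of active genes and 2.06% of genes at 0. Leaving out a replicate gave 75.6 to 84.4%, 83.4 to 88% and 2.88 to 4.09%. Without loci under 1 kb 77.3% of active genes and 87.4% of the 500 had a region. An activity limit of RPKM 5 gave 79.1%, and any RPKM above 0 gave 59.0%. Of settings chosen after seeing the data, autosomes alone gave 77.8% of active genes, autosomes with loci of at least 1 kb 79.9% and, of the 500, 90.2%, and loci not over 1 kb longer than in RefSeq 76.7%. The difference in mean log2 level, 2.78 with a pseudocount of 1, was 4.69 with 0.1 and 0.72 among active genes only, and 2.77 to 2.83 leaving out a replicate. The 100 most active genes held 39.9% of summed RPKM, 49.3% with genes of own coordinates only, 39.7% without short loci and 39.87% in the knockdown 1 table. The active genes numbered 11687, or 16576 with exactly 1 read as 1. No paired analysis was possible because the result comes from no test between groups. Regions lower than the lowest listed (61 and 40 reads at the highest position) were not analysed here.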

Other observations

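The counts of genes with a region that follow stand beside 75.2% of all active genes. Among lists not described above, all 18 genes of chromatin and histone variants were active, with a median of 514 RPKM. After Npm1 stood Ptma, the prothymosin gene (1824), Set (1447) and H2afz, which encodes H2A.Z (1434), while Hmga2 was at 3.59. A region stood at the start of 9 of the 11 with coordinates of their own. All 17 cytoskeleton genes were active, led by Actg1, Actb (2037) and the tubulin Tubb5 (1242), and 13 of 16 had a region. Of 9 genes of DNA methylation and demethylation 8 were active. Dnmt3l, the cofactor of the de novo methyltransferases, stood at 181, above Dnmt1 (55.9), Dnmt3a (47.1) and Dnmt3b (24.5), and the dioxygenase Tet1 at 44.4 above Tet2 (11.1) and Tet3 (0.682). Each of the 3 active members with coordinates of their own had a region.

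All 21 excision repair genes were active, from Pcna, the replication clamp (402), and Ddb1, a subunit of the UV damage sensor (321), down to Ercc6, which acts in repair of transcribed genes (4.72). The damage-verifying factor Xpa (7.94) and the nuclease subunits Ercc4 (8.94) and Ercc5 (11.8) were near Xpc (8.73) in level. All 13 genes of one-carbon and threonine metabolism were active, with Psat1 (304) after Tdh, and the 5 with coordinates of their own had a region. Of the active genes of Nodal signalling and the primed state 6 of the 7 with coordinates of their own had a region. Of 7 LIF and STAT3 pathway genes all were active, and 3 of 4 had a region. For coactivators this was 2 of 3, without Nop10, and for the XPC complex and RAD23 genes 2 of 3 active ones, without Cetn2.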
